A study of Mus musculus with 24 samples.

Results

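Interferon response genes were followed as one group and gene by gene in primary mouse keratinocytes that did or did not carry an Hras retrovirus. The group is a list of 40 gene symbols, chosen with earlier results of these data known, and each gene was read from the probe set with the highest mean over the 24 arrays among those that carried a single symbol. Of the 40, 37 were measured, out of 19937 genes in all. Isg15 and Gbp2 lay on probe sets that carried several symbols, and Ifi44 had no named probe set, so these 3 were not analysed here. Of the 37, 20 lay above the dimmest 40% of all genes by mean level, and the others were dim.

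Cells that sense foreign nucleic acid, or that are met by a neighbour's interferon, switch on a shared antiviral programme. Interferon receptors act through the kinases Jak1 and Tyk2 to bring Stat2 and Irf9 into a complex that binds the interferon-stimulated response element (ISRE) of its target genes, and Irf7 and Irf1 bind closely related elements. Type II interferon acts mainly through another element, the gamma-activated site (GAS). In skin, keratinocytes carry the sensors and receptors themselves and keep a low constitutive level of the programme.

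The arrays (Affymetrix Mouse Gene 1.0 ST, log2 values) covered 8 groups of 3. Keratinocytes of wild-type (WT) or Ppar-beta null mice, all of strain C57/BL6, were mock transduced or carried an activated Hras retrovirus for 48 h, and were given the solvent DMSO or, for 24 h, 1 uM GW0742. Ppar-beta is a nuclear receptor for fatty acids and GW0742 is its synthetic agonist. The 8 groups are WT or null, mock or Hras, DMSO or GW0742, and a group's 3 arrays are numbered 1 to 3 below. Nothing in the labels states that the 3 came from separate animals or cultures, so p-values measure only how far these arrays scatter, and that scatter may be technical. An Hras effect here is Hras virus against mock: the oncogene and the infection that carried it cannot be told apart. Nor can fewer cells of a type and less RNA per cell, in bulk RNA.

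As a check on the labels, Ppard, the gene of Ppar-beta, was lower in null than in WT cells, with differences of -0.57 and -0.55 (log2, null minus WT) in mock cells and -0.28 and -0.46 in Hras cells, each time DMSO first, with adjusted p-values of 1.53e-06, 1.05e-06, 0.00194 and 1.03e-05 (limma). The sources used here do not say which exons the null allele lacks, so a remaining signal says nothing by itself. Keratinocyte markers stood at a mean log2 level of 12.91 to 12.93 in the WT mock DMSO arrays. All 24 values of a gene entered each fit. The median SD over all genes was 0.122 in the null Hras GW0742 group and 0.0647 to 0.0798 in the other groups, and the fit uses 1 spread per gene for all groups.

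The sequence that names the programme is short. The ISRE core searched here is GAAANNGAAA, read on both strands with overlapping matches allowed, in RefSeq promoter windows (GRCm38.p6) that run from 250 bases before a gene's start into its first bases. It occurred in 3.44% of 32851 windows, or in at least 1 window of 3.99% of all genes with one, and in at least 1 window of 13 of the 28 measured members that had one: Bst2, Cxcl10, Ddx60, Eif2ak2, Gbp3, Ifih1, Ifit1, Ifit3, Oas1a, Oas3, Rsad2, Stat2 and Trim30a. The GAS core TTCNNNGAA, searched in the same way and free to overlap the other motif, occurred in 8.3% of all windows, or 9.55% of genes, and in 7 of the 28 members: Bst2, Eif2ak2, Ifi35, Ifit2, Irf1, Oas1a and Psmb8. A match is a string of letters and not a site shown to be bound. The 6 stretches below are from the ISRE-core members with the largest Hras effects in null DMSO cells, shown 5′ to 3′ along the gene with the core in capitals, as GAAA or, on the other strand, TTTC boxes.
Cxcl10: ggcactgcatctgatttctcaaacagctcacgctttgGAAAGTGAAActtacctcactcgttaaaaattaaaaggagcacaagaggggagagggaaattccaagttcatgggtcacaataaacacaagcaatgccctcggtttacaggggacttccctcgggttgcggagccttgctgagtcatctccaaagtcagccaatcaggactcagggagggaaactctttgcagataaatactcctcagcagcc
Ifit1: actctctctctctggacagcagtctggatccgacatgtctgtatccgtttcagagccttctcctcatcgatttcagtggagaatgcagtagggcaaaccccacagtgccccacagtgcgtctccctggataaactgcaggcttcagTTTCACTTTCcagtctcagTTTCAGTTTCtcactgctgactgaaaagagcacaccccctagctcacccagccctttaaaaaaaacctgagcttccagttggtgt
Stat2: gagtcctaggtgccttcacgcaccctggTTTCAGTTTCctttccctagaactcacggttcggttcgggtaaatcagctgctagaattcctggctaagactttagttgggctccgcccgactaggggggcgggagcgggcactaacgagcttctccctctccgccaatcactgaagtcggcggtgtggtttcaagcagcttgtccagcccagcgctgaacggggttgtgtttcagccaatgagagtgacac
Ifit3: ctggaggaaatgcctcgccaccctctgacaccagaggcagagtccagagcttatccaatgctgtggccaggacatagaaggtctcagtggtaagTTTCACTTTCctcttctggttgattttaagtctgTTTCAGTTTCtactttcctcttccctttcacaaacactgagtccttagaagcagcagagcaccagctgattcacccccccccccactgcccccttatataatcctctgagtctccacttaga
Ifih1: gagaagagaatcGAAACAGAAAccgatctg
Trim30a: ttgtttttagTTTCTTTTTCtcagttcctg

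The first 4 are the 250 bases before the start: chr5:92348890-92349139 on the minus strand for Cxcl10, chr19:34640639-34640888 on the plus strand for Ifit1, chr10:128270248-128270497 on the plus strand for Stat2 and chr19:34583279-34583528 on the plus strand for Ifit3. The core begins 213 bases before the start of Cxcl10 and 222 before that of Stat2. Ifit1 holds a pair, beginning 104 and 85 bases before its start, and Ifit3 another, 156 and 122 bases before. In Ifih1 (chr2:62646206-62646235, minus strand) and Trim30a (chr7:104446104-104446133, minus strand) the core shown lies 32 and 2 bases after the start. Trim30a has a second window, for another start, with a core 36 bases before it. Of the 13 members with a core 13 fell with Hras in null DMSO cells and 13 in null GW0742 cells, with medians of -0.64 and -0.87 (log2). Of the 15 with a window but no core 12 and 9 fell, with medians of -0.67 and -0.54. A fall here is a lower level at an adjusted p under 0.05 (limma). Of all genes 20.5% fell in null DMSO and 20.7% in null GW0742 cells. In WT cells 7 of the 13 with a core fell with DMSO and 6 with GW0742, against 9 and 10 of the 15 without. Of all genes 19% and 17.5% fell in these WT comparisons. The WT medians with DMSO and GW0742 were -0.47 and -0.27 with a core, and -0.42 and -0.50 without. For null against WT in mock cells the medians were 0.33 and 0.35 with a core, and 0.19 and 0.08 without. These splits carry no test.

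Taken over the 37 genes, the mean log2 level separated Hras from mock arrays without overlap. In mock arrays it was 7.62 to 7.66 (WT, DMSO), 7.41 to 7.68 (WT, GW0742), 7.85 to 8.09 (null, DMSO) and 7.73 to 8.05 (null, GW0742). In Hras arrays it was 7.14 to 7.18 (WT, DMSO), 7.04 to 7.22 (WT, GW0742), 6.96 to 7.15 (null, DMSO) and 6.95 to 6.98 (null, GW0742). The lowest mock array thus stood above the highest Hras array. Within mock cells every null array lay above every WT array, and within Hras cells the genotypes overlapped with DMSO, whereas with GW0742 every null array lay below every WT array. The 37 are a chosen list, so this mean carries no test of its own.

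**Figure D1:**
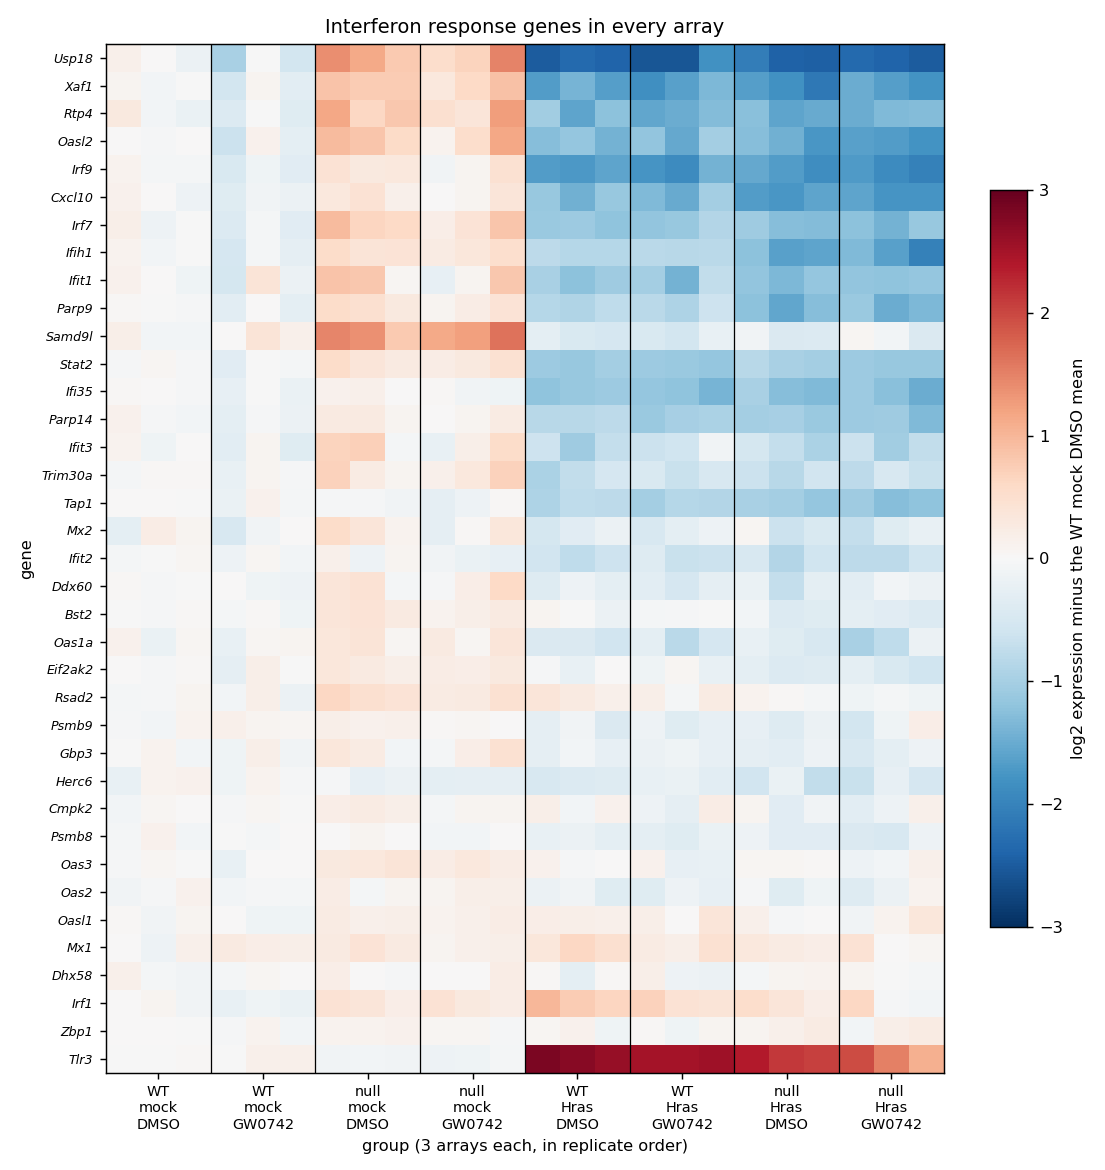
Each of the 37 measured interferon response genes (rows) in each of the 24 arrays (columns, 3 per group), coloured by log2 expression minus that gene's WT mock DMSO mean, with red higher and blue lower. Most genes are blue in the Hras arrays, most deeply Usp18, and many are red in the null mock arrays, whereas Tlr3 is red in every Hras array.

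With Hras, most of the group fell. In WT cells with DMSO, 20 of the 37 members fell and 4 rose (limma, Benjamini-Hochberg adjusted p under 0.05 over all genes), where 19% of all genes fell and 18.4% rose. With GW0742 the WT counts were 20 and 3, against 17.5% and 17.7% of genes. In null cells 30 fell and 1 rose with DMSO (20.5% and 20.2% of genes), and 28 fell and 1 rose with GW0742 (20.7% and 21%). The median member changed by -0.42, -0.36, -0.67 and -0.70 (log2, in that order), beside medians over all genes of 0.02, -0.02, 0.00 and 0.00.

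Of the members, 18 fell in all 4 Hras comparisons, a pattern of 10.2% of all genes: Irf7, Irf9, Stat2, Ifih1, Usp18, Ifit1, Ifit2, Oas1a, Oasl2, Rtp4, Trim30a, Ifi35, Xaf1, Parp9, Parp14, Psmb8, Tap1 and Cxcl10. Of the 18, the WT calls of Oas1a, Psmb8 and Trim30a depended on single arrays. With GW0742 the Oas1a call was lost without WT mock GW0742 array 2 (adjusted p = 0.0542) or 3 (adjusted p = 0.0591) or WT Hras GW0742 array 2 (adjusted p = 0.104). That of Psmb8 was lost without WT Hras GW0742 array 2 (adjusted p = 0.0626), and that of Trim30a without WT mock GW0742 array 2 (adjusted p = 0.0618) or WT Hras GW0742 array 2 (adjusted p = 0.0572). The 1 member that rose in all 4, as 9.19% of genes did, was Tlr3. Dhx58 and Zbp1 passed in none, like 41.6% of genes. The 2 comparisons of a genotype use different arrays for each ligand, and those of different genotypes share none.

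**Figure D2:**
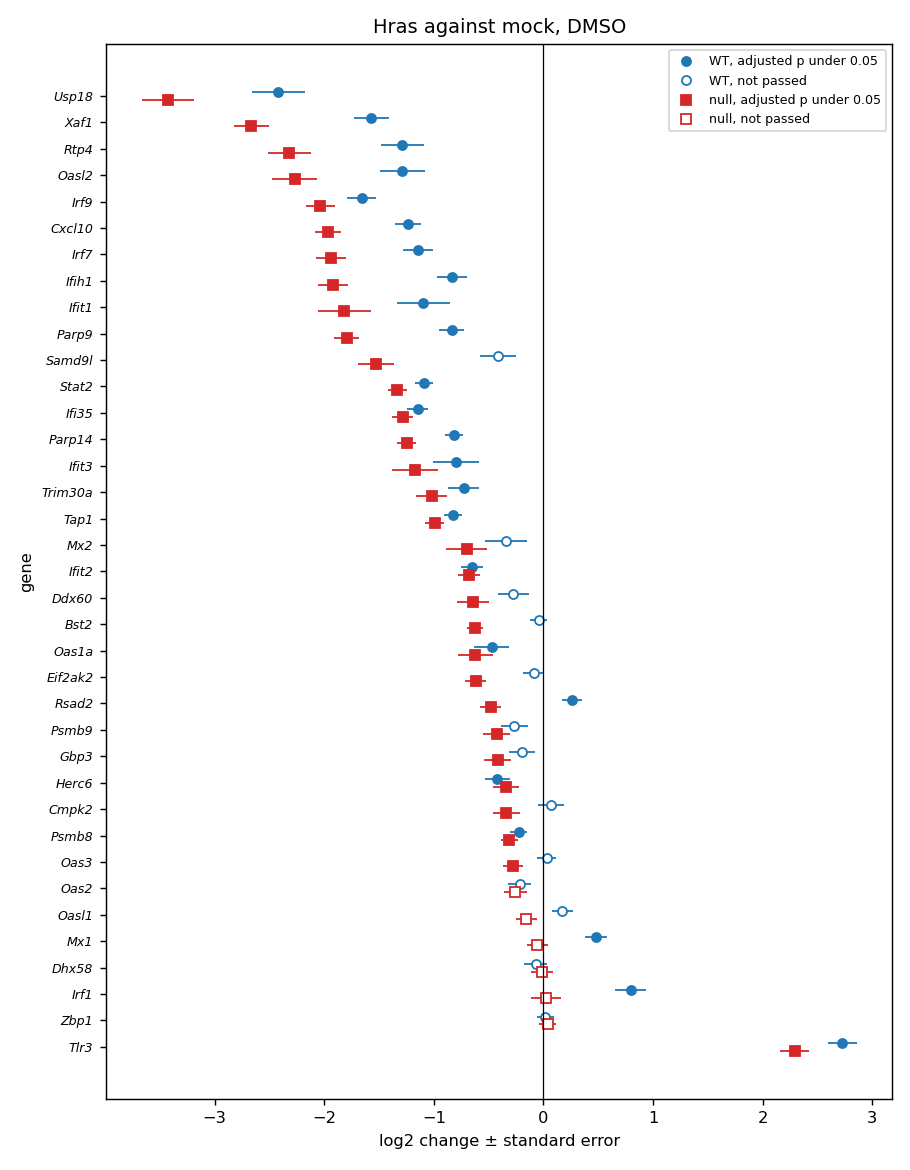
Log2 change with Hras against mock (x axis, DMSO, bars are standard errors) of the 37 members (y axis) in WT (circles) and null (squares) cells, filled where adjusted p was under 0.05. Null points lie left of WT points for most genes, as for Usp18 (-2.42 in WT, -3.43 in null), while Irf1, Mx1 and Rsad2 are filled right of 0 in WT only and Tlr3 is far right in both.

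Among the transcription factors, 3 of 4 fell in every Hras comparison. Irf9 (probe set 10415319), the DNA-binding part of the complex with Stat2, fell most. In WT cells with DMSO, Irf9 stood at 10.12, 9.96 and 9.96 without Hras and at 8.33, 8.30 and 8.43 with it. GW0742 arrays of WT cells read 9.55, 9.89 and 9.66 (mock) and 8.24, 8.13 and 8.60 (Hras) for Irf9. No Hras array reached any mock array. In null cells Irf9 was at 10.44, 10.30 and 10.32 (mock, DMSO) and 8.48, 8.33 and 8.15 (Hras, DMSO). With GW0742, null Irf9 levels were 9.91, 10.10 and 10.47 without and 8.32, 8.13 and 7.98 with Hras. Null cells showed the same separation. The change was -1.66 ± 0.13 (SE, adjusted p = 9.09e-10) in WT DMSO cells and -2.04 ± 0.13 (SE, adjusted p = 3.28e-11) in null DMSO cells.

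Stat2 (probe set 10367224), which gives that complex its activating domain, moved with the least scatter of the 4. WT mock DMSO arrays gave Stat2 levels of 9.20, 9.30 and 9.20, and WT Hras DMSO arrays gave 8.14, 8.09 and 8.21. Under GW0742 the WT levels of Stat2 were 8.89, 9.23 and 9.17 in mock and 8.15, 8.13 and 8.06 in Hras arrays. Mock and Hras arrays were again apart. Among null arrays, Stat2 read 9.78, 9.60 and 9.49 in mock DMSO and 8.39, 8.26 and 8.21 in Hras DMSO cells. The GW0742 counterparts of Stat2 were 9.46, 9.53 and 9.69 and 8.14, 8.10 and 8.10. The null mock arrays were the highest of all. Stat2 changed by -1.09 ± 0.08 (SE, adjusted p = 4.46e-10) in WT and by -1.33 ± 0.08 (SE, adjusted p = 1.59e-11) in null cells with DMSO, and by -0.98 and -1.44 with GW0742.

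Irf7 (probe set 10569102) is itself an interferon target and the main factor for interferon-alpha genes. Levels of Irf7 in WT DMSO cells were 8.62, 8.29 and 8.45 without Hras and 7.33, 7.36 and 7.24 with it. For WT cells with GW0742, Irf7 came to 8.03, 8.39 and 8.11 (mock) and 7.27, 7.33 and 7.58 (Hras). The Hras arrays lay below all mock arrays. Irf7 in null DMSO arrays was 9.40, 9.10 and 9.05 for mock and 7.40, 7.18 and 7.16 for Hras cells. Null arrays with GW0742 gave Irf7 values of 8.66, 8.86 and 9.30 and 7.23, 7.04 and 7.32. In Hras cells the genotypes overlapped, and in mock cells they did not. The Irf7 change was -1.14 ± 0.14 (SE, adjusted p = 5.72e-07) in WT and -1.94 ± 0.14 (SE, adjusted p = 1.52e-10) in null DMSO cells.

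Irf1 (probe set 10376060), the factor of the interferon-gamma and NF-kB responses, went the other way in WT cells. Irf1 measured 8.08, 8.17 and 7.98 in the WT mock DMSO arrays, against 9.08, 8.83 and 8.71 with Hras and DMSO. WT cells given GW0742 held it at 7.86, 7.94 and 7.89 without Hras and at 8.77, 8.51 and 8.46 with it. Here Hras arrays lay above mock arrays. Null DMSO cells held Irf1 at 8.52, 8.45 and 8.27 without Hras and at 8.61, 8.44 and 8.27 with it, and null GW0742 cells at 8.52, 8.36 and 8.29 and 8.70, 8.04 and 7.99. The null ranges overlapped between mock and Hras. Irf1 rose by 0.80 ± 0.14 (SE, adjusted p = 8.32e-05) in WT DMSO and 0.68 ± 0.14 (SE, adjusted p = 0.000488) in WT GW0742 cells, while the null values were 0.02 ± 0.14 (SE, adjusted p = 0.926) and -0.15 ± 0.14 (SE, adjusted p = 0.468). A second, dimmer Irf1 probe set (10385870) did not show this: it read 7.47 to 7.52 in WT mock DMSO and 7.45 to 7.66 in WT Hras DMSO arrays, and 7.26 to 7.60 and 7.50 to 7.58 in the null ones. The 2 probe sets disagree, so each Irf1 value here holds for the brighter one only.

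**Figure D3:**
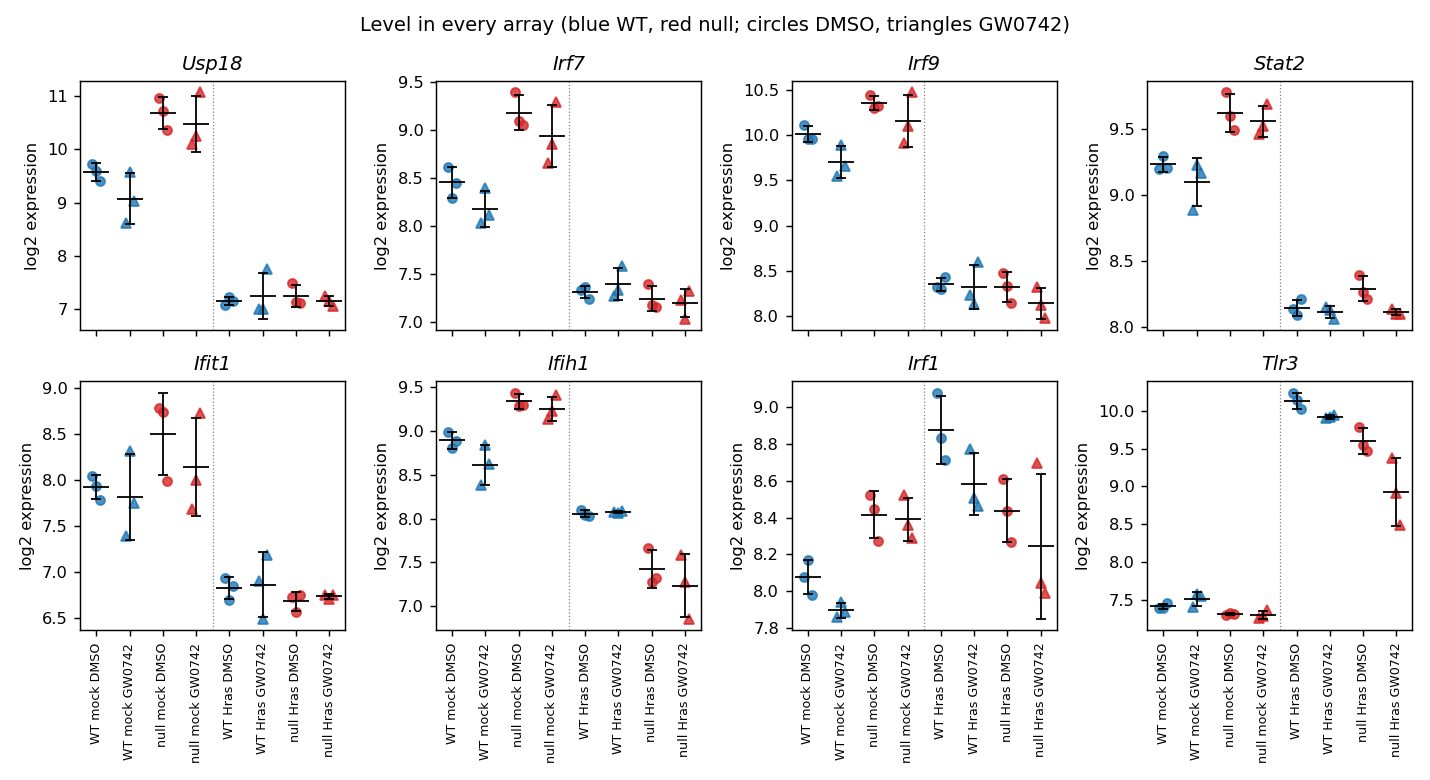
Log2 expression (y axes) of 8 members in every array of the 8 groups (x axis), with WT in blue, null in red, DMSO as circles and GW0742 as triangles; black bars are the mean and SD of 3 arrays. Usp18, Irf7, Irf9, Stat2, Ifit1 and Ifih1 drop from the left (mock) to the right (Hras) of each panel, Irf1 rises in WT only, and Tlr3 rises in all Hras groups, least in null cells with GW0742.

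The nucleic acid sensors split. Ifih1 (probe set 10483110), or MDA5, the cytosolic sensor of long double-stranded RNA, fell. In WT cells with DMSO, Ifih1 stood at 8.99, 8.81 and 8.88 without Hras and at 8.10, 8.04 and 8.03 with it. GW0742 arrays of WT cells read 8.38, 8.84 and 8.62 (mock) and 8.08, 8.06 and 8.08 (Hras) for Ifih1. Hras arrays were lower throughout. In null cells Ifih1 was at 9.44, 9.29 and 9.30 (mock, DMSO) and 7.67, 7.27 and 7.32 (Hras, DMSO). With GW0742, null Ifih1 levels were 9.14, 9.23 and 9.41 without and 7.58, 7.27 and 6.86 with Hras. Null Hras arrays lay below all WT Hras arrays. The change was -0.84 ± 0.14 (SE, adjusted p = 3.24e-05) in WT DMSO cells and -1.92 ± 0.14 (SE, adjusted p = 1.47e-10), a 3.79-fold fall, in null DMSO cells.

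Tlr3 (probe set 10578493), the endosomal sensor of double-stranded RNA, rose more than any other member moved in WT cells. WT mock DMSO arrays gave Tlr3 levels of 7.39, 7.39 and 7.45, and WT Hras DMSO arrays gave 10.24, 10.14 and 10.03. Under GW0742 the WT levels of Tlr3 were 7.40, 7.57 and 7.55 in mock and 9.90, 9.92 and 9.95 in Hras arrays. Every WT Hras array lay above 9 and every WT mock array below 8. Among null arrays, Tlr3 read 7.30, 7.32 and 7.31 in mock DMSO and 9.79, 9.54 and 9.47 in Hras DMSO cells. The GW0742 counterparts of Tlr3 were 7.26, 7.28 and 7.36 and 9.38, 8.92 and 8.48. The null Hras arrays with GW0742 were the most scattered. Tlr3 rose by 2.73 ± 0.13 (SE, adjusted p = 3.45e-13), a 6.62-fold gain, in WT DMSO cells, by 2.42 in WT GW0742 cells, by 2.29 ± 0.13 (SE, adjusted p = 5.14e-12) in null DMSO cells and by 1.63 in null GW0742 cells.

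The remaining sensors moved less. Ddx60, a helicase cofactor of RNA sensing, and Eif2ak2, the RNA-activated kinase PKR, did not pass in WT cells and fell in null cells, with changes of -0.64 and -0.62 with DMSO and of -0.45 and -0.70 with GW0742. The Ddx60 call with GW0742 was lost without null mock GW0742 array 3 (adjusted p = 0.134) and without null Hras GW0742 array 1 (adjusted p = 0.0574). Dhx58, or LGP2, which tunes Ifih1, and the Z-nucleic-acid sensor Zbp1 changed by between -0.09 and 0.09 in the 4 comparisons and passed in none.

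Usp18 (probe set 10541307), the protease that strips ISG15 from proteins and blocks signalling at the type I receptor, had the largest fall of any member in every Hras comparison. Levels of Usp18 in WT DMSO cells were 9.73, 9.60 and 9.40 without Hras and 7.07, 7.23 and 7.16 with it. For WT cells with GW0742, Usp18 came to 8.61, 9.57 and 9.03 (mock) and 7.0, 7.02 and 7.75 (Hras). The WT mock arrays with GW0742 spread over nearly 1 log2 unit, yet none overlapped an Hras array. Usp18 in null DMSO arrays was 10.97, 10.71 and 10.37 for mock and 7.50, 7.14 and 7.13 for Hras cells. Null arrays with GW0742 gave Usp18 values of 10.10, 10.25 and 11.07 and 7.24, 7.17 and 7.07. Null mock arrays were the highest of all, and Hras arrays of both genotypes overlapped. The Usp18 change was -2.42 ± 0.24 (SE, adjusted p = 2.94e-08), a 5.34-fold fall, in WT DMSO cells and -3.43 ± 0.24 (SE, adjusted p = 1.12e-10), a 10.8-fold fall, in null DMSO cells, and with GW0742 it was -1.82 and -3.31. Herc6, the mouse ligase that attaches ISG15, changed by -0.42 and -0.34 with DMSO in WT and null cells and did not pass with GW0742. The null Herc6 call was lost without null mock DMSO array 1 (adjusted p = 0.0921), null Hras DMSO array 1 (adjusted p = 0.0727) or null Hras DMSO array 3 (adjusted p = 0.158).

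In the IFIT and OAS families, whose proteins bind viral RNA or make the 2'-5' oligoadenylate that activates RNase L, 5 of 8 fell in WT DMSO cells and 6 of 8 in null DMSO cells. Ifit1 (probe set 10462623) stands for the first family. Ifit1 measured 8.05, 7.94 and 7.79 in the WT mock DMSO arrays, against 6.94, 6.70 and 6.85 with Hras and DMSO. WT cells given GW0742 held it at 7.39, 8.31 and 7.75 without Hras and at 6.91, 6.50 and 7.19 with it. Its mock levels were scattered, but Hras levels stayed below them. Null DMSO cells held Ifit1 at 8.78, 8.74 and 7.99 without Hras and at 6.74, 6.57 and 6.75 with it, and null GW0742 cells at 7.69, 8.0 and 8.72 and 6.75, 6.71 and 6.75. The change was -1.09 ± 0.24 (SE, adjusted p = 0.000800) in WT and -1.81 ± 0.24 (SE, adjusted p = 1.78e-06) in null DMSO cells. Ifit2 changed by -0.65 and -0.67, and Ifit3 by -0.79 and -1.17, in the same comparisons. Ifit1, Ifit3 and Oas1a have closely similar gene copies, so which copy their probes read is uncertain.

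Oasl2 (probe set 10524621), an OAS-like protein with ubiquitin-like domains, fell most in the second family. In WT cells with DMSO, Oasl2 stood at 8.72, 8.67 and 8.73 without Hras and at 7.43, 7.54 and 7.29 with it. GW0742 arrays of WT cells read 8.05, 8.84 and 8.41 (mock) and 7.52, 7.17 and 7.68 (Hras) for Oasl2. Its Hras arrays lay below all mock arrays. In null cells Oasl2 was at 9.66, 9.53 and 9.27 (mock, DMSO) and 7.43, 7.26 and 6.97 (Hras, DMSO). With GW0742, null Oasl2 levels were 8.80, 9.23 and 9.86 without and 7.07, 7.03 and 6.91 with Hras. It changed by -1.29 ± 0.20 (SE, adjusted p = 2.21e-05) in WT and -2.27 ± 0.20 (SE, adjusted p = 5.87e-09) in null DMSO cells. Oas1a changed by -0.47 and -0.62. The WT Oas1a call was lost without WT mock DMSO array 1 (adjusted p = 0.0905), WT mock DMSO array 3 (adjusted p = 0.0719) or WT Hras DMSO array 3 (adjusted p = 0.0802).

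The other OAS genes had smaller changes with Hras. Oas3 changed by -0.28 in null DMSO cells, a call lost without null mock DMSO array 3 (adjusted p = 0.0547). Oas2 was at -0.22 and -0.25 with DMSO, short of the threshold, and at -0.29 ± 0.11 (SE, adjusted p = 0.0293) in null GW0742 cells. The latter was lost without null mock GW0742 array 2 (adjusted p = 0.0717) or 3 (adjusted p = 0.0817) or null Hras GW0742 array 1 (adjusted p = 0.187) or 2 (adjusted p = 0.0740). Oasl1, a brake on Irf7 translation, rose by 0.27 in WT GW0742 cells, where its mock and Hras arrays overlapped. That call was lost without WT mock GW0742 array 2 (adjusted p = 0.102) or 3 (adjusted p = 0.0863), or without WT Hras GW0742 array 1 (adjusted p = 0.0571) or 3 (adjusted p = 0.192).

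Of the 12 other antiviral effectors, 6 fell and 2 rose in WT DMSO cells, and 11 fell in null DMSO cells. Xaf1 (probe set 10378068), a promoter of apoptosis, led. WT mock DMSO arrays gave Xaf1 levels of 8.68, 8.52 and 8.57, and WT Hras DMSO arrays gave 6.92, 7.20 and 6.95. Under GW0742 the WT levels of Xaf1 were 8.03, 8.68 and 8.27 in mock and 6.76, 6.95 and 7.26 in Hras arrays. No array of one kind reached the other. Among null arrays, Xaf1 read 9.45, 9.35 and 9.36 in mock DMSO and 6.94, 6.78 and 6.44 in Hras DMSO cells. The GW0742 counterparts of Xaf1 were 8.91, 9.19 and 9.47 and 7.10, 6.93 and 6.81. The change was -1.57 ± 0.16 (SE, adjusted p = 4.57e-08) in WT and -2.67 ± 0.16 (SE, adjusted p = 9.24e-12) in null DMSO cells.

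Rtp4 (probe set 10434778), a chaperone of receptors that also restrains RNA viruses, followed. Levels of Rtp4 in WT DMSO cells were 7.70, 7.32 and 7.20 without Hras and 6.36, 5.84 and 6.17 with it. For WT cells with GW0742, Rtp4 came to 7.01, 7.40 and 7.05 (mock) and 5.85, 5.92 and 6.10 (Hras). Hras and mock arrays did not overlap. Rtp4 in null DMSO arrays was 8.58, 8.03 and 8.22 for mock and 6.15, 5.83 and 5.90 for Hras cells. Null arrays with GW0742 gave Rtp4 values of 7.88, 7.76 and 8.67 and 5.91, 6.09 and 6.10. It changed by -1.29 ± 0.19 (SE, adjusted p = 1.26e-05) in WT and -2.32 ± 0.19 (SE, adjusted p = 2.08e-09) in null DMSO cells.

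Parp9 and Parp14, which ADP-ribosylate proteins in the interferon response, changed by -0.84 and -0.82 in WT and by -1.79 and -1.25 in null DMSO cells. Ifi35 changed by -1.15 and -1.28, and Trim30a, a ubiquitin ligase that restrains inflammatory signalling, by -0.73 and -1.02. Samd9l, a growth restriction factor, changed by -1.53 in null DMSO cells and was at -0.42 in WT DMSO cells, where it did not pass. In WT GW0742 cells Samd9l did pass. It fell there from 5.67, 6.05 and 5.82 in mock to 5.21, 5.12 and 5.45 in Hras arrays. Bst2, the tetherin that holds budding virus at the membrane, was at -0.04 in WT and changed by -0.63 in null DMSO cells.

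A pair of effectors rose with Hras in WT DMSO cells and did not pass in WT GW0742 cells, where Mx1 was at 0.08 and Rsad2 at 0.15. Both lay among the dimmest 40% of all genes. The GTPase Mx1 rose by 0.48 ± 0.10 (SE, adjusted p = 0.000462) in WT DMSO cells, from 5.84, 5.68 and 5.99 to 6.18, 6.46 and 6.30. Mx1 was at -0.05 in null DMSO cells. Rsad2, or viperin, which makes a chain-ending nucleotide, rose by 0.26 ± 0.09 (SE, adjusted p = 0.0289) in WT DMSO cells, at levels of 6.15, 6.16 and 6.29 in mock and 6.57, 6.47 and 6.35 in Hras arrays. It changed by -0.48 in null DMSO cells, from 6.83, 6.68 and 6.60 to 6.30, 6.23 and 6.14. The WT Rsad2 call was lost without WT mock DMSO array 1 (adjusted p = 0.0918) or 2 (adjusted p = 0.0928) and without WT Hras DMSO array 1 (adjusted p = 0.135) or 2 (adjusted p = 0.0675). Mx2 and Cmpk2, a mitochondrial nucleotide kinase, changed by -0.70 and -0.34 in null DMSO cells and did not pass in WT DMSO cells. The Cmpk2 call was lost with each array centred on its median, and without null mock DMSO array 1 (adjusted p = 0.0600), 2 (adjusted p = 0.0819) or 3 (adjusted p = 0.0558) or null Hras DMSO array 2 (adjusted p = 0.193) or 3 (adjusted p = 0.0605).

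Antigen processing genes and the chemokine fell together in null DMSO cells, 5 of 5, and 3 of 5 fell in WT DMSO cells. Cxcl10 (probe set 10531415), the T-cell attractant read as a marker of interferon exposure, led. Cxcl10 measured 9.20, 9.10 and 8.94 in the WT mock DMSO arrays, against 7.95, 7.64 and 7.95 with Hras and DMSO. WT cells given GW0742 held it at 8.72, 8.99 and 8.90 without Hras and at 7.75, 7.58 and 8.06 with it. Every mock array stood above every Hras array. Null DMSO cells held Cxcl10 at 9.40, 9.51 and 9.24 without Hras and at 7.40, 7.34 and 7.49 with it, and null GW0742 cells at 9.10, 9.17 and 9.45 and 7.50, 7.31 and 7.32. Null Hras arrays were the lowest. It changed by -1.24 ± 0.12 (SE, adjusted p = 1.94e-08) in WT and -1.97 ± 0.12 (SE, adjusted p = 1.09e-11) in null DMSO cells. Tap1, a subunit of the peptide pump that loads class I molecules, changed by -0.83 and -0.99. The immunoproteasome subunit Psmb8 changed by -0.23 and -0.31. The WT Psmb8 call was lost with each array centred on its median (-0.23 became -0.18), without WT mock DMSO array 2 (adjusted p = 0.168) and without WT Hras DMSO array 3 (adjusted p = 0.0928). Psmb9 and the GTPase Gbp3 changed by -0.43 and -0.42 in null DMSO cells. The Gbp3 call was lost without null mock DMSO array 1 (adjusted p = 0.0562). Psmb9 also fell in WT GW0742 cells, from a mean of 8.27 to 7.91, a call that omission of either of 2 single arrays lost. In null GW0742 cells Psmb9 was at -0.20 and did not pass.

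Without Hras, null cells held more of the programme than WT cells. In mock DMSO cells 12 of 37 members were higher in null than in WT and none was lower, where 4.89% of all genes were higher and 5.53% lower. In mock GW0742 cells 18 were higher and none lower (11.1% and 10.9% of genes). The median member difference was 0.31 and 0.28, beside 0.03 and 0.03 over all genes. The same 12 passed with both ligands, a pattern of 3.66% of genes: Irf7, Stat2, Ifih1, Usp18, Oas3, Oasl2, Rsad2, Bst2, Samd9l, Rtp4, Xaf1 and Parp9. Of the 12, Oas3, Rsad2, Samd9l and Rtp4 lay among the dimmest 40% of all genes. The 2 mock comparisons, with DMSO and with GW0742, share no arrays. The GW0742 count fell to 11 without WT mock GW0742 array 1, and to 11 without null mock GW0742 array 3. With a minimum of 1.5-fold the counts were 6 and 7.

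**Figure D4:**
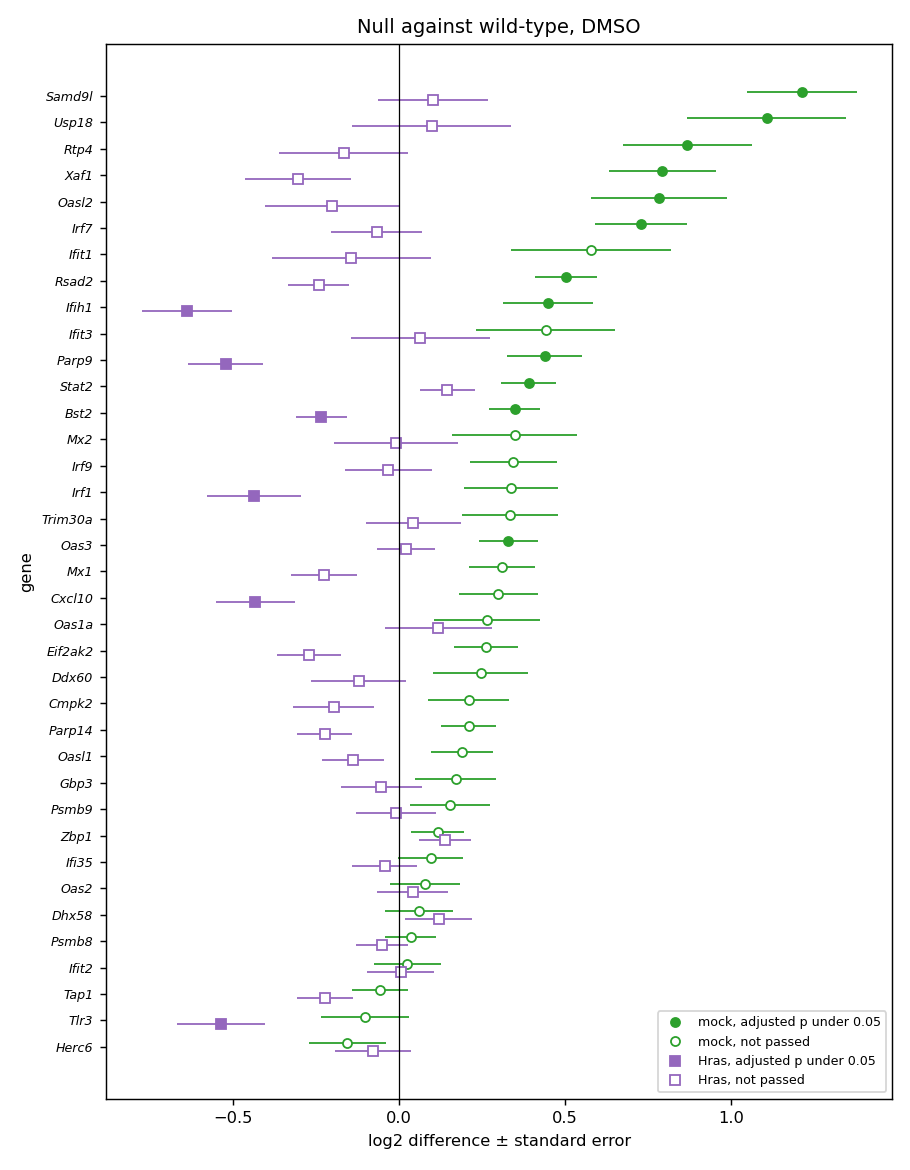
Log2 difference null minus WT (x axis, DMSO, bars are standard errors) of the 37 members (y axis) in mock cells (green circles) and Hras cells (purple squares), filled where adjusted p was under 0.05. Most green points lie right of 0, up to 1.21 for Samd9l and 1.11 for Usp18, while the filled purple points, Ifih1, Parp9, Bst2, Irf1, Cxcl10 and Tlr3, lie left of 0.

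Samd9l (probe set 10542911), a dim member, differed most with DMSO. Its mock DMSO levels were 5.83, 5.58 and 5.58 in WT and 7.13, 7.04 and 6.45 in null arrays. With GW0742 they were 5.67, 6.05 and 5.82 and 6.79, 6.90 and 7.29. All null arrays stood above all WT arrays. The Samd9l difference was 1.21 ± 0.17 (SE, adjusted p = 2.93e-05) with DMSO and 1.15 ± 0.17 (SE, adjusted p = 2.68e-05) with GW0742.

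From the levels given above, Usp18 was higher in null mock cells by 1.11 ± 0.24 (SE, adjusted p = 0.00351) with DMSO and 1.40 ± 0.24 (SE, adjusted p = 0.000173) with GW0742. Rtp4 differed by 0.87 ± 0.19 (SE, adjusted p = 0.00478) and 0.95 ± 0.19 (SE, adjusted p = 0.00103). Xaf1 differed by 0.79 ± 0.16 (SE, adjusted p = 0.00191) and 0.86 ± 0.16 (SE, adjusted p = 0.000382). In each of the 3 no null mock array fell to the level of a WT mock array.

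Of the 4 transcription factors 2 were higher in null mock cells with DMSO and 4 with GW0742. Irf7 differed by 0.73 ± 0.14 (SE, adjusted p = 0.00108) and 0.76 ± 0.14 (SE, adjusted p = 0.000331), and Stat2 by 0.39 ± 0.08 (SE, adjusted p = 0.00292) and 0.46 ± 0.08 (SE, adjusted p = 0.000273). Irf9 and Irf1 passed with GW0742 only, at 0.46 and 0.49, beside 0.34 and 0.34 with DMSO. In the test of whether the ligand effect differed by genotype in mock cells, no member passed. The Irf9 call was lost without WT mock GW0742 array 1 (adjusted p = 0.0785) or null mock GW0742 array 3 (adjusted p = 0.121), and that of Irf1 without null mock GW0742 array 1 (adjusted p = 0.0667).

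Oasl2 was higher in null cells by 0.78 ± 0.20 (SE, adjusted p = 0.0143) with DMSO, a call lost without null mock DMSO array 1 (adjusted p = 0.0640) or 2 (adjusted p = 0.0513). With GW0742 the Oasl2 difference was 0.87, and 1 WT array overlapped the null arrays. Rsad2 differed by 0.50 and 0.35. The GW0742 call of Rsad2 was lost without WT mock GW0742 array 3 (adjusted p = 0.0637) or null mock GW0742 array 3 (adjusted p = 0.0597).

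Ifih1 differed by 0.45 and 0.64, and its DMSO call was lost when any 1 of the 6 arrays compared was left out (adjusted p up to 0.136). Parp9 differed by 0.44 and 0.45, and its DMSO call was lost without null mock DMSO array 1 (adjusted p = 0.0653) or 2 (adjusted p = 0.0526). Bst2 and Oas3 differed by 0.35 and 0.33 with DMSO, and the Oas3 call was lost without WT mock DMSO array 1 (adjusted p = 0.0675) or 3 (adjusted p = 0.0545) or null mock DMSO array 3 (adjusted p = 0.0745). Cxcl10, Trim30a, Eif2ak2 and Parp14 passed with GW0742, at 0.37, 0.45, 0.27 and 0.28, and each of these 4 calls was lost without WT mock GW0742 array 1 (adjusted p = 0.132, 0.128, 0.301 and 0.105, in that order) and without null mock GW0742 array 3. Counting every single array whose omission lost the call, these were 5 for Eif2ak2, 3 for Cxcl10, 3 for Trim30a and 2 for Parp14. The Bst2 difference with GW0742 was 0.24, a call lost without WT mock GW0742 array 1 (adjusted p = 0.0704) or 3 (adjusted p = 0.120) or null mock GW0742 array 2 (adjusted p = 0.0548) or 3 (adjusted p = 0.134). The Oas3 difference with GW0742 was 0.32, a call lost without WT mock GW0742 array 1 (adjusted p = 0.0717). Tlr3, at -0.10 and -0.21, Herc6, at -0.16 and -0.24, and Tap1, at -0.06 and -0.09, were the members below 0 with both ligands, and none of the 3 passed.

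With Hras, the few members called by genotype were all lower in null cells. Of these, Tlr3 and Tap1 were below 0 in mock cells too, without passing. With DMSO 6 members were lower in null than in WT Hras cells and none higher, where 9.32% of genes were lower and 10.1% higher. With GW0742 7 were lower and none higher (11.2% and 9.91%). The median difference was -0.08 and -0.12, beside 0.02 and 0.04 over all genes. The DMSO count was 3 without WT Hras DMSO array 1 and 3 without null Hras DMSO array 2, and the GW0742 count was 11 without null Hras GW0742 array 1 and 4 without array 3 of that group. At a minimum of 1.5-fold the counts were 1 and 2, and with only the arrays compared in the fit the GW0742 count was 4.

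Ifih1, Tlr3, Bst2, Parp9 and Cxcl10 were lower with both ligands, a pattern of 6.74% of genes. Ifih1 differed by -0.64 ± 0.14 (SE, adjusted p = 0.00174) with DMSO and -0.84 ± 0.14 (SE, adjusted p = 0.000103) with GW0742. Tlr3 differed by -0.54 ± 0.13 (SE, adjusted p = 0.00569) and -1.0 ± 0.13 (SE, adjusted p = 9.36e-06). Both sensors were thus lower in null Hras cells, although Hras lowered the first and raised the second. Parp9 differed by -0.52 and -0.52.

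Cxcl10 differed by -0.43 and -0.42. Its calls were lost without WT Hras DMSO array 1 (adjusted p = 0.0622) or 3 (adjusted p = 0.0556) or null Hras DMSO array 2 (adjusted p = 0.0570), and without WT Hras GW0742 array 3 (adjusted p = 0.116) or null Hras GW0742 array 2 (adjusted p = 0.0592) or 3 (adjusted p = 0.0531). Bst2 differed by -0.23 and -0.31. Its DMSO call, where the groups overlapped, was lost without WT Hras DMSO array 1 (adjusted p = 0.174) or 2 (adjusted p = 0.0997) or null Hras DMSO array 2 (adjusted p = 0.190) or 3 (adjusted p = 0.142). Irf1 was lower with DMSO, at -0.44, a call lost without WT Hras DMSO array 1 (adjusted p = 0.164) or 2 (adjusted p = 0.0636) or null Hras DMSO array 2 (adjusted p = 0.0813) or 3 (adjusted p = 0.153). Eif2ak2 and Tap1 were lower with GW0742, at -0.35 and -0.27. The Eif2ak2 call was lost without WT Hras GW0742 array 2 (adjusted p = 0.0761) or null Hras GW0742 array 3 (adjusted p = 0.0746), and that of Tap1 without array 2 or 3 of either Hras GW0742 group.

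The test of the difference itself asked whether the Hras effect depended on genotype. With DMSO 15 of 37 members had a more negative Hras effect in null than in WT cells and none a more positive one, where 8.41% and 8.35% of genes did. With GW0742 17 did and none the reverse (12.6% and 11.5%). The median over the members was -0.38 and -0.45, beside -0.01 and 0.01 over all genes. With both ligands it was 14 members, as it was 6.92% of genes: Irf1, Irf7, Ifih1, Eif2ak2, Usp18, Oasl2, Rsad2, Bst2, Samd9l, Rtp4, Xaf1, Parp9, Parp14 and Cxcl10.

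Ifih1 gave -1.09 ± 0.19 (SE, adjusted p = 0.000398) and -1.48 ± 0.19 (SE, adjusted p = 8.00e-06), being higher in null mock and lower in null Hras cells than in WT. Parp9, with the same crossing, gave -0.96 ± 0.16 (SE, adjusted p = 0.000205) and -0.97 ± 0.16 (SE, adjusted p = 0.000107). Bst2 gave -0.58 and -0.55, and its calls in mock GW0742 and Hras DMSO cells rested on single arrays, as given above. For Samd9l (-1.11 and -0.89), Xaf1 (-1.10 and -0.91) and Irf7 (-0.80 and -0.96), the genotypes differed in mock cells and did not pass in Hras cells. The same held for Usp18, Oasl2, Rsad2 and Rtp4. This test uses the same arrays as the genotype comparisons above, and equals the genotype difference in Hras cells minus that in mock cells.

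Usp18 gave -1.01 with DMSO (adjusted p = 0.0451), a call lost when any 1 of 10 of the 12 arrays was left out, with the replicate block and with trended, robust variances. With GW0742 it gave -1.50 ± 0.34 (SE, adjusted p = 0.00220). Oasl2 gave -0.98 and -1.32, and its DMSO call was lost without null mock DMSO array 1 (adjusted p = 0.0533), WT Hras DMSO array 2 (adjusted p = 0.0548) or null Hras DMSO array 3 (adjusted p = 0.0653). Irf1 gave -0.77 ± 0.20 (SE, adjusted p = 0.00903) and -0.83 ± 0.20 (SE, adjusted p = 0.00367), where Hras raised it in WT cells and did not pass in null cells.

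GW0742 changed 1 member past the threshold over its 4 comparisons. Against DMSO, 0 of 37 members passed in WT mock cells, 0 in WT Hras cells and 0 in null mock cells, and 1 fell in null Hras cells (limma). At an unadjusted p under 0.05 the counts were 4, 2, 2 and 2. Over all genes 2.86%, 6.11%, 0% and 5.02% passed in either direction. The median member changed by -0.07, -0.02, -0.11 and -0.08, beside 0.00, -0.01, 0.00 and 0.00 over all genes. In WT mock as in null mock cells 31 of 37 members were below 0, where 51.75% and 50.82% of all genes were above 0. The members are not independent counts: array 1 was the lowest of its 3 in 28 members in each of these GW0742 groups. The 1 call was Tlr3 in null Hras cells, at -0.68 ± 0.13 (SE, adjusted p = 0.00350). It was lost when only the arrays compared were fitted, and the count was 3 without null Hras GW0742 array 1.

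Beside Tlr3, the largest value of each comparison was short of the threshold. In WT mock cells it was Usp18 at -0.50 ± 0.24 (SE, adjusted p = 0.373), whose 3 GW0742 arrays spread widely. WT Hras cells gave Ifit3 at 0.35 ± 0.21 (SE, adjusted p = 0.451), null mock cells Ifit1 at -0.36 ± 0.24 (SE, adjusted p = 0.918), and null Hras cells Oas1a at -0.28 ± 0.16 (SE, adjusted p = 0.410). A p over the threshold does not show that the ligand left these genes alone.

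The ligand's effect was also compared between groups. Between null and WT mock cells 0 members passed (0.848% of genes did), between null and WT Hras cells 0 (1.73%), and between Hras and mock WT cells 0 (2.47%). At an unadjusted p under 0.05 there was 1 member in each. Between null and WT Hras cells the count was 1 without null Hras GW0742 array 1.

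In the Hras comparisons 37.4% (WT DMSO), 35.2% (WT GW0742), 40.7% (null DMSO) and 41.8% (null GW0742) of all genes were called in either direction, which is the background for the related lists below. Of 17 measured interferons, receptors and kinases, 2 rose and 2 fell with Hras in WT cells with either ligand, 1 rose and 4 fell in null DMSO cells, and 1 rose and 6 fell in null GW0742 cells. No interferon gene on the list passed in any Hras or genotype comparison. Ifnb1, interferon-beta, read 5.51 to 5.56 in WT mock DMSO and 5.62 to 5.73 in WT Hras DMSO arrays, and Ifnk, the keratinocyte interferon, 4.94 to 5.34 and 5.02 to 5.13. Both are low on this array's scale, where a small change would be hard to see.

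The type I receptor chain Ifnar1 was near 10.20 in WT mock DMSO cells and changed by 0.08 with Hras there, which did not pass, and by -0.12 in null DMSO cells (adjusted p = 0.0472). Its partner Ifnar2 was at -0.14 and -0.14, neither past the threshold. The interferon-gamma receptor chains parted: Ifngr1 rose by 0.54 in WT and 0.36 in null DMSO cells, while Ifngr2 changed by -0.53 and -0.84. Jak1, the kinase both receptors use, changed by -0.40 and -0.45.

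Among 20 other factors, sensors, adaptors and inhibitors, 3 rose and 4 fell with Hras in WT DMSO and 4 rose and 6 fell in null DMSO cells. Ikbke and Sting1, a kinase and the adaptor of DNA sensing, rose by 1.21 and 1.03 in WT DMSO cells and were at 0.24 and 0.03 in null DMSO cells, neither past the threshold. In Hras DMSO cells they were lower in null than in WT, with differences of -0.72 and -1.01. Aim2, a cytosolic DNA sensor, rose by 0.76 in WT and 1.19 in null DMSO cells. Socs1, the feedback inhibitor of Jak kinases, did not pass in WT DMSO cells at 0.11 and rose by 0.19 in null DMSO cells.

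The 41 measured interferon-stimulated effectors outside the group moved in a mixed way. With Hras 7 rose and 16 fell in WT cells, with DMSO as with GW0742, 4 rose and 21 fell in null DMSO cells, and 2 rose and 18 fell in null GW0742 cells. Ifi27 changed by -1.99 and -2.18, and Lgals3bp, a secreted glycoprotein, by -2.06 and -2.14, in WT and null DMSO cells. Irgm1, a GTPase of autophagy and parasite defence, changed by -0.87 and -2.26. Dtx3l, the ubiquitin ligase that works with Parp9, changed by -0.89 and -1.82. Against these, the exonuclease Isg20 rose by 1.71 and 1.48 and Ifi205 by 2.02 and 1.81. In WT DMSO cells Ifi203 rose by 1.22 and Ifitm3, which blocks viral fusion, by 0.98, and both were lower in null than in WT Hras DMSO cells, with differences of -0.61 and -0.65.

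By genotype, 7 of the 41 were higher in null mock DMSO cells and none lower, where 4.89% of all genes were higher and 5.53% lower. In null mock GW0742 cells 11 were higher and 1 lower (11.1% and 10.9% of genes). Irgm1 was higher by 0.66 and 0.56, and Dtx3l by 0.48 and 0.70. In Hras cells 1 was higher and 10 lower with DMSO (10.1% and 9.32% of genes). With GW0742 none was higher and 12 lower (9.91% and 11.2% of genes). Irgm1 was at -0.73 and -0.72 in these Hras comparisons. Of 13 other antigen presentation genes and chemokines, 6 fell and 1 rose with Hras in WT DMSO and 9 fell in null DMSO cells, where Tapbp, the class I loading factor tapasin, changed by -1.0. The chemokine Ccl5 rose by 0.45 in WT and changed by -0.43 in null DMSO cells.

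Markers of other cells moved in the same comparisons. Of 16 leukocyte and Langerhans cell markers, 5 fell and 1 rose with Hras in WT DMSO cells and 5 fell and 3 rose in null DMSO cells. In null mock cells 2 of the 16 were higher with DMSO (4.89% of all genes) and 4 with GW0742 (11.1%), none lower. Their mean log2 level was 6.62 to 6.72 in WT mock DMSO, 6.82 to 6.89 in null mock DMSO, 6.42 to 6.46 in WT Hras DMSO and 6.52 to 6.57 in null Hras DMSO arrays. With GW0742 it was 6.61 to 6.64, 6.86 to 6.94, 6.49 to 6.53 and 6.55 to 6.79 in the same order. Lyz2, lysozyme of myeloid cells, had the lowest Hras values of the list, -1.87 and -2.93 in WT and null DMSO cells, and was higher in null mock cells by 1.01 and 1.33. H2-Ab1, a class II antigen chain, went the other way with Hras: it rose by 0.45 in null DMSO, 1.26 in WT GW0742 and 1.58 in null GW0742 cells, and was at 0.26, short of the threshold, in WT DMSO cells. Ptprc (CD45), at 5.79 to 5.95 in WT mock DMSO and 5.97 to 6.11 in null mock DMSO arrays, and Cd207, the Langerhans cell lectin, at 5.76 to 6.07 and 5.71 to 6.16, are near the bottom of the scale and passed in no Hras or genotype comparison. The part of leukocytes in the interferon gene differences was not tested. Of 4 markers of plasmacytoid dendritic cells 1, Ccr9, was lower in null mock DMSO cells, at -0.45, and none was called in null mock GW0742 cells.

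Fibroblast markers fell with Hras, 10 of 10 in WT DMSO and 6 of 10 in null DMSO cells with 1 rising. In null mock cells 9 of the 10 were lower with DMSO (5.53% of all genes) and 8 with GW0742 (10.9%). Their mean level was 8.83 to 8.89 in WT mock DMSO, 8.24 to 8.30 in null mock DMSO, 7.50 to 7.63 in WT Hras DMSO and 7.77 to 7.98 in null Hras DMSO arrays, so by genotype in mock cells they went opposite to the interferon group. Of 8 melanocyte markers all fell with Hras in both DMSO comparisons. The mean level of the melanocyte list was 10.12 to 10.22 in WT mock DMSO and 9.87 to 9.94 in null mock DMSO arrays. In Hras DMSO arrays it was 9.09 to 9.26 in WT and 9.16 to 9.27 in null cells. Of 15 keratinocyte markers 11 fell and 1 rose with Hras in WT DMSO cells, and 11 fell and 2 rose in null DMSO cells, with median changes of -0.34 and -0.35. The lowest was Krt1, the keratin of the spinous layer, at -5.80 and -5.13. Their part in the interferon gene differences was not tested either.

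**Figure D5:**
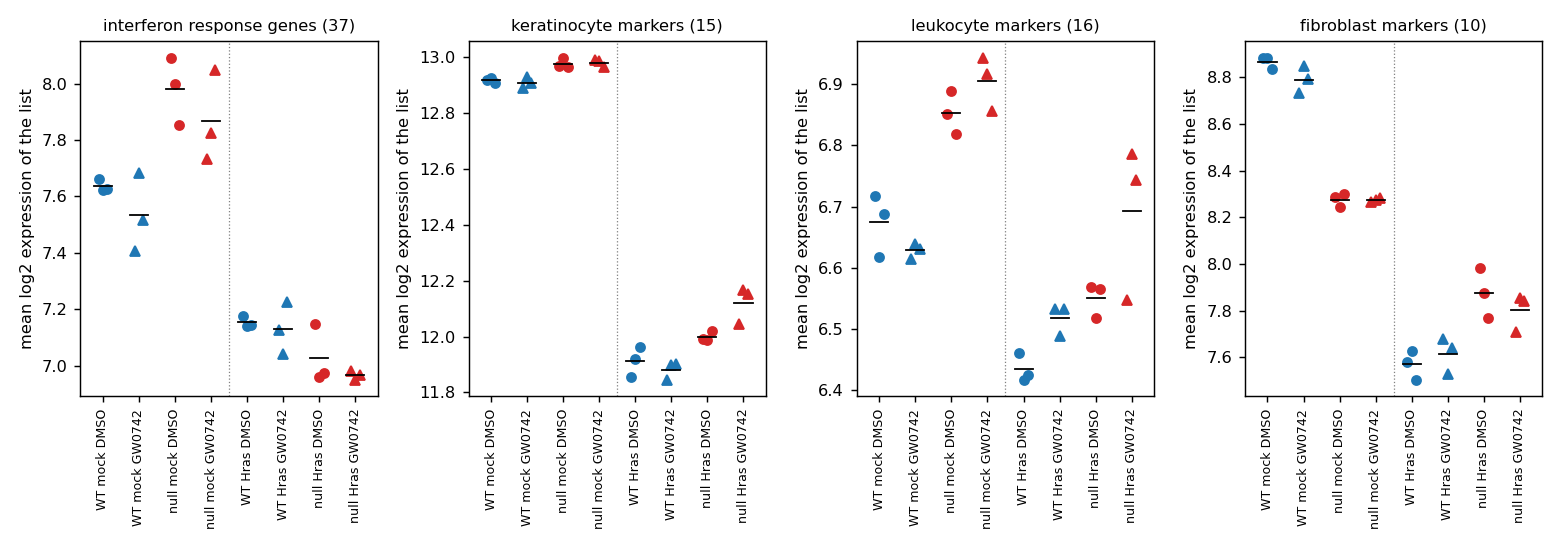
Mean log2 expression (y axes) of the 37 interferon response genes and of the keratinocyte, leukocyte and fibroblast marker lists in each array (points) of the 8 groups (x axis), WT in blue, null in red, DMSO as circles and GW0742 as triangles, with group means as bars. The interferon and leukocyte means are both highest in null mock arrays. The interferon mean is lower in every Hras array than in every mock array. The leukocyte mean is not, since its null Hras GW0742 arrays overlap the WT mock arrays. Fibroblast markers are highest in WT mock arrays.

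The order of the arrays within a group was uneven over the 37 members in some groups. WT mock GW0742 array 1 was the lowest of its 3 in 28 members (in 39% of all genes) and array 2 the highest in 29 (43.9%). Null mock GW0742 array 1 was the lowest in 28 (34.9%) and array 3 the highest in 29 (28.1%). In null mock DMSO cells array 1 was the highest in 25 (30.6%) and array 3 the lowest in 24 (34.7%), and in null Hras DMSO cells array 1 was the highest in 27 (43.8%). WT Hras GW0742 array 3 was the highest in 23 (28.5%). The other groups were more even: arrays 1, 2 and 3 were the highest in 17, 9 and 11 members in WT mock DMSO, in 14, 13 and 10 in WT Hras DMSO and in 18, 5 and 14 in null Hras GW0742 cells. The median SD of the members was 0.0932 to 0.169 by group, above that of all genes in each group.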

How the data were processed

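Affymetrix Mouse Gene 1.0 ST arrays measured total RNA of 24 samples, 3 in each of 8 groups. The authors deposited log2 values normalized by RMA, per the submitters' processing notes, and no step before that was rerun. The deposited table holds 34760 probe sets, of which 21640 carry 1 gene symbol, 1321 several and 11799 none. Each of 19937 genes was read from its brightest probe set with 1 symbol. A model of 8 group means was fitted to all arrays with limma 3.58.1 (lmFit and eBayes, R 4.3.3), two-sided, for 12 comparisons of groups and 5 differences of effects. A gene was called at a Benjamini-Hochberg adjusted p under 0.05 over all genes, and every adjusted p here is from limma. The procedure was tested on simulated data in which genes were independent and few were changed. That setting differs from the Hras comparisons here.

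Any member could be named, with full statistics for those called with the largest changes. Of each related list up to 4 called genes with the largest change were named in a comparison. Ptprc, Cd207, Lyz2 and Krt1 were picked after their values were seen. The members and lists were chosen with earlier results of these data known. Alternatives were centring each array, leaving out the dimmest 40% of genes, trended and robust variances, other sets of arrays, all probe sets, a 1.5-fold minimum, the replicate block and leaving out each array. The number of arrays limits the precision.

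Replicate numbers were checked for pairing: deviations from group means of same-numbered arrays had a median correlation of 0.015 over 84 pairs, and of differently numbered arrays -0.008 over 168. The numbers were not taken as pairs. Promoter windows and sequences are from RefSeq (GRCm38.p6), matched by symbol for 28 of 37 members.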

Additional observations from a re-analysis of the deposited data

Results flagged for a closer look

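The Hras effect differed between the genotypes for 15 members with DMSO and 17 with GW0742, by the test of the difference itself (limma, adjusted p under 0.05 over all genes). All these differences, null minus WT on the log2 scale, were negative. With DMSO they were Samd9l -1.11, Xaf1 -1.10, Ifih1 -1.09, Rtp4 -1.03, Usp18 -1.01, Oasl2 -0.98, Parp9 -0.96, Irf7 -0.80, Irf1 -0.77, Rsad2 -0.74, Cxcl10 -0.73, Bst2 -0.58, Mx1 -0.54, Eif2ak2 -0.53 and Parp14 -0.43.

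With GW0742 the differences were Usp18 -1.50, Ifih1 -1.48, Oasl2 -1.32, Parp9 -0.97, Irf7 -0.96, Xaf1 -0.91, Samd9l -0.89, Rtp4 -0.88, Irf1 -0.83, Cxcl10 -0.79, Tlr3 -0.79, Irf9 -0.64, Eif2ak2 -0.62, Rsad2 -0.57, Bst2 -0.55, Stat2 -0.46 and Parp14 -0.43. The call of Rtp4 with GW0742 was lost without WT mock GW0742 array 1 (adjusted p = 0.0591) or 3 (adjusted p = 0.0537), null mock GW0742 array 3 (adjusted p = 0.0746) or WT Hras GW0742 array 3 (adjusted p = 0.0589). Irf1 was read from the brighter of 2 probe sets that disagree. The call of Irf9 was lost without null mock GW0742 array 3 (adjusted p = 0.0543) or WT Hras GW0742 array 3 (adjusted p = 0.0546).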

How the results depend on the processing

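Of 183 calls of single members, 179 were kept with each array centred on its median, 182 with trended and robust variances, 170 with only the arrays compared, 174 with all probe sets and 120 with the 1.5-fold minimum; no call reversed under any alternative run. With the dimmest 40% of genes left out, the counts of Hras calls in null cells were 18 (DMSO) and 17 (GW0742), since only 20 members remained. With only the arrays compared, GW0742 called 0 in null Hras cells, and null against WT in Hras GW0742 cells called 4. At 1.5-fold, null against WT called 6 in mock DMSO, 7 in mock GW0742, 1 in Hras DMSO and 2 in Hras GW0742 cells.

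Leaving out 1 array gave 11 to 18 calls for null against WT in mock GW0742 cells, 3 to 6 in Hras DMSO cells and 4 to 11 in Hras GW0742 cells. GW0742 in null Hras cells ranged from 1 to 3, and its difference between the genotypes in Hras cells from 0 to 1. With the replicate block every count stayed within 1.5 times its value, for example 31 Hras calls in null DMSO cells, and the calls of Eif2ak2 (null against WT, mock GW0742) and Usp18 (Hras effect, null minus WT, DMSO) were lost. The cause was not tested. The number of arrays, 3 a group, limits what could be detected.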
